A study of Mus musculus with 64 samples.

Results

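The 10 circadian clock genes described here were Arntl (also named Bmal1), Clock, Npas2, Per1, Per2, Per3, Nr1d1, Nr1d2, Dbp and Ciart. They were chosen by name, with earlier results of these data known. All 10 were found, by their mouse gene IDs, among the 36332 distinct genes of the expression table. The clock in each mammalian cell is a loop of transcription and feedback. The activators ARNTL and CLOCK (or NPAS2, a relative of CLOCK) bind as pairs to DNA elements called E-boxes and switch on the Per, Cry, Nr1d and Dbp genes. PER and CRY proteins then repress the activators, the receptors NR1D1 and NR1D2 (REV-ERB alpha and beta) repress Arntl and Npas2, DBP acts on a further element (the D-box), and CIART is a small repressor of the activators. In liver, fat and muscle these loops give daily rhythms of metabolic genes, so the phase at which a tissue is collected is known to affect the levels of many clock genes.

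The libraries came from liver, skeletal muscle and the omental fat depot (adipose tissue below) of mice with and without Myc, at 5 and 20 months. MycKO mice (KO) carried the tamoxifen-inducible Cre allele Gt(ROSA)26Sortm1(cre/ERT2)Tyj, which is expressed body-wide, and the floxed allele Myctm2Fwa, in a cross with B6.129 and B6.129S6 strain names. The WT mice were labelled C57/B6, so genotype and strain background cannot be told apart, and both genotypes were labelled as given 5 doses of tamoxifen at 75 mg/kg from weaning, at 15 g of body weight or more. In the 64 libraries there were 6 WT and 6 KO at 5 months and 5 WT and 5 KO at 20 months for adipose tissue and for liver, and 6, 4, 5 and 5 for muscle. Libraries are named by their codes: W or K for the genotype, 5 or 18 for the age (the other labels give 20 months, which is used here), F, L or S for adipose tissue, liver or muscle, then a number. The numbers of the young libraries recur between tissues and are read here as animal numbers, which the labels do not state. The time of day of collection is not given in the sources used here.

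Libraries held 15.4 to 28.5 M reads on genes. Values are in the deposited unit, called CPM in the header, in which 1 read was worth 0.0204 to 0.0882. Summed markers of the labelled tissue were high throughout: 7 adipocyte genes summed to 6979 to 27680 CPM in adipose tissue, 7 hepatocyte genes to 106456 to 220630 in liver and 7 muscle genes to 134021 to 188357 in muscle. Hepatocyte markers also reached 4892 CPM in young adipose tissue and 2854 in 1 WT muscle library at 20 months. Epididymis markers were present in 4 adipose libraries, all at 5 months. They summed to 6250, 957 and 4020 CPM in the KO libraries K5F4284, K5F5218 and K5F5248, and to 920 in the WT library W5F5299. Genotype, age and these markers are thus partly confounded in adipose tissue. In muscle, W5S5299 held 126 CPM of them. Myc, the targeted gene, did not overlap between KO and WT in liver at either age (1.16 to 4.04 CPM against 5.46 to 33.7 at 5 months) or in adipose tissue at 5 months (2.87 to 10.5 against 11.2 to 22.8), but its ranges overlapped in adipose tissue at 20 months and in muscle at both ages. Xist was expressed in 12 young libraries (4 numbers, as in W5L5041, W5L5042, K5L5116 and K5L5118) and in no library at 20 months, so age and the presence of Xist are partly confounded. The Y-linked genes Ddx3y, Kdm5d, Uty and Eif2s3y summed to 0 CPM in these 12 libraries and to 84.9 to 337 CPM in all others. By these genes the young groups mix females and males, and the older groups are all male. In bulk tissue, fewer cells of a type and less RNA per cell cannot be told apart.

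Promoter sequences from RefSeq (GRCm38.p6) were available for 9 of the 10 members, with 13 start sites. They are shown for the 4 genes that held a searched clock element within 250 bases before a start site, because the loop described above acts through these elements. Per1 held 1 E-box (CACGTG) at 166 to 161 bases before its first start site (chr11:69098699-69098948, + strand). Ciart held 3 E-boxes that began 116, 58 and 44 bases before its start (chr3:95882229-95882478, − strand). Per3 held 2 D-boxes (TTATGTAA) that began 205 and 158 bases before its start (chr4:151044666-151044915, − strand), and Nr1d1 held 1 E-prime box (CACGTT, read as AACGTG on the printed strand) at 28 to 23 bases (chr11:98775378-98775627, − strand). The sequences run 5′ to 3′ along each gene's strand and end next to the start site, and capitals mark the elements.
Per1: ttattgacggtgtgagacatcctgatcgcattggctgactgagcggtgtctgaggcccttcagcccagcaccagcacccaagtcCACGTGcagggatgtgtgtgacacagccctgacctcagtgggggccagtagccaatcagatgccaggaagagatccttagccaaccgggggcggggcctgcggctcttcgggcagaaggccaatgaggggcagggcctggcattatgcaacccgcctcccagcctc
Ciart: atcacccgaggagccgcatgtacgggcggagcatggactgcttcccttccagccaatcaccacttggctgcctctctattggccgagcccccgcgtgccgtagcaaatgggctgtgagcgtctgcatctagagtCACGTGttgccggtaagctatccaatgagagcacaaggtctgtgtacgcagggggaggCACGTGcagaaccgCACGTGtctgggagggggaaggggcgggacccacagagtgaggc
Per3: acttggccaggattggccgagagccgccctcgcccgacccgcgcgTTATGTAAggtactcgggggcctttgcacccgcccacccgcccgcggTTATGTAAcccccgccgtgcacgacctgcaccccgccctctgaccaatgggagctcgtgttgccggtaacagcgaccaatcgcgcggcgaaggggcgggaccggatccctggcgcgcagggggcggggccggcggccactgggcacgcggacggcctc
Nr1d1: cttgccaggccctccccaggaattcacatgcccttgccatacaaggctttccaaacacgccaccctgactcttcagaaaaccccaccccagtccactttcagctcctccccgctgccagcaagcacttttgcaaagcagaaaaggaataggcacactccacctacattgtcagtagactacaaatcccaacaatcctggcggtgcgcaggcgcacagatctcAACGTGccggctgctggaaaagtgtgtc

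Both strands were searched. Among 32817 promoters of the same length, 6.02% held the E-box, 3.85% the E-prime box and 0.817% the D-box. The looser D-box TTANNTAA, which covers the D-box, was found in 5.43% of promoters and among members in Per3 alone. The RORE, the element of the NR1D and ROR receptors, was in 0.332% of promoters and in none of the 13 windows of members. A match describes letters in this window and is no measure of binding.

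The activators differed in how much they varied. Arntl, the activator that the loop cannot do without, ranged 7.31-fold over the 22 adipose libraries (6.27 to 45.8 CPM), 9.82-fold over the 22 liver libraries (4.06 to 39.9 CPM) and 8.61-fold over the 20 muscle libraries (19.2 to 166 CPM). Clock, its usual partner, ranged only 3.01-fold, 2.61-fold and 2.67-fold. Npas2, the alternative partner, ranged 45.2-fold in adipose tissue (1.30 to 58.9 CPM), 43.4-fold in liver and 20.0-fold in muscle. In liver the lowest Npas2 level, 0.591 CPM, rested on 8 reads. Within groups, the SD of log2(CPM + 1) for Clock was 0.36, 0.30 and 0.26 in adipose tissue, liver and muscle, next to a median of 0.36, 0.29 and 0.26 over all genes tested. Arntl had an SD of 0.73, 0.77 and 0.90, and Npas2 of 1.18, 1.20 and 0.60. Both thus varied within groups more than over 90% of tested genes in each tissue, and Clock like the median gene.

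Among the genes that the activators switch on, Dbp had the widest spread of the 10 members in liver and muscle. This transcription factor ranged from 1.75 to 255 CPM in liver (146-fold), from 2.69 to 148 in muscle (55.2-fold) and from 1.80 to 34.7 in adipose tissue (19.3-fold). Its within-group SD of 1.07, 1.82 and 1.33 was above that of 97.5%, 99.7% and 99.5% of tested genes. Per3, a period gene whose product is the weakest repressor of the period proteins, had an SD of 1.03, 0.98 and 1.12. Per1 and Per2, the main period repressors, had 0.60 and 0.45 in adipose tissue, 0.95 and 0.67 in liver and 0.53 and 0.56 in muscle. The receptor genes Nr1d1 and Nr1d2 varied in liver (1.01 and 0.93) and adipose tissue (0.74 and 0.76), but in muscle their SD of 0.38 and 0.35 was closer to the tissue's median. Ciart was low, with 5 to 273 reads per library, and passed the filter in liver (SD 0.78) and muscle (0.82) but not in adipose tissue, where it ranged from 0.278 to 1.32 CPM. Of the members tested, 6 of 9 in adipose tissue, 9 of 10 in liver and 7 of 10 in muscle varied more than 90% of tested genes.

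**Figure D1:**
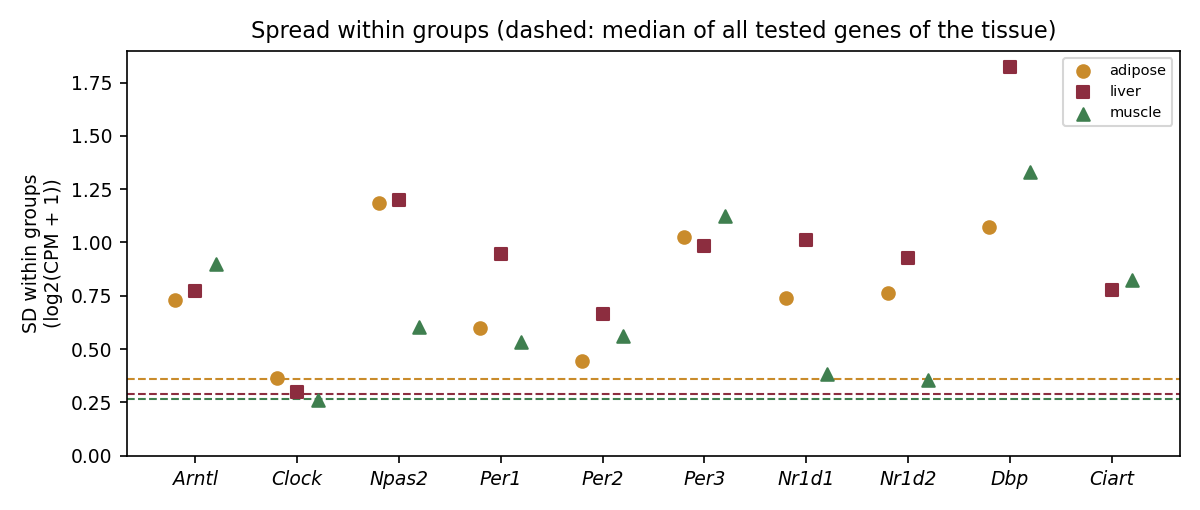
Standard deviation of log2(CPM + 1) within groups (y axis) for each member (x axis) in adipose tissue (circles), liver (squares) and muscle (triangles), with the median of all tested genes of each tissue as a dashed line. Dbp in liver stands highest at 1.82 and Clock lies on the dashed lines in each tissue.

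A few libraries carried much of this spread. The libraries W5F5277, W5L5277 and W5S5277, of 1 WT number at 5 months, had the lowest Arntl and Npas2 and the highest Per3, Nr1d2 and Dbp of their 6 WT libraries in all 3 tissues. Their Arntl level was 6.27 CPM in adipose tissue (20.5 to 41.4 in the other 5), 12.8 in liver (33.6 to 39.9) and 24.4 in muscle (62.3 to 166). Their Dbp level was 34.1 CPM in adipose tissue (1.89 to 7.10 in the others), 81.8 in liver (2.82 to 6.44) and 68.2 in muscle (6.99 to 18.6). Low Arntl and Npas2 with high Per3, Nr1d2 and Dbp were thus shared by the tissues of this number. Per1, also a target of the activators, was instead the lowest of its group in adipose tissue and muscle, and Clock was the lowest in adipose tissue but not in liver or muscle.

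Such libraries appeared in other groups too. The KO libraries K5F5218 and K5L5218, again of 1 number, had the lowest Arntl of the 6 young KO libraries in adipose tissue (11.8 CPM) and liver (7.11 CPM). Their Per3 was the highest in both (63.4 and 7.45 CPM). Dbp was at 121 CPM in K5L5218, where the other 5 young KO livers had 2.16 to 4.24. K5F5218 also held epididymis markers. At 20 months the WT libraries W18F24, W18L04 and W18S66 had the lowest Arntl (7.94, 4.06 and 19.2 CPM) and the highest Dbp (34.7, 255 and 148 CPM) of their groups. So did the KO muscle library K18S64 (Arntl 32.4 and Dbp 52.8 CPM). The KO adipose library K18F29 did too, but nearer to its group, at 21.6 CPM for Arntl (group median 26.8) and 7.40 CPM for Dbp (group median 4.14). The 5 KO livers at 20 months held no such library: their Arntl levels were 27.2, 30.3, 30.9, 31.3 and 32.5 CPM and their Dbp levels 1.75, 3.02, 3.17, 3.42 and 5.60 CPM.

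**Figure D2:**
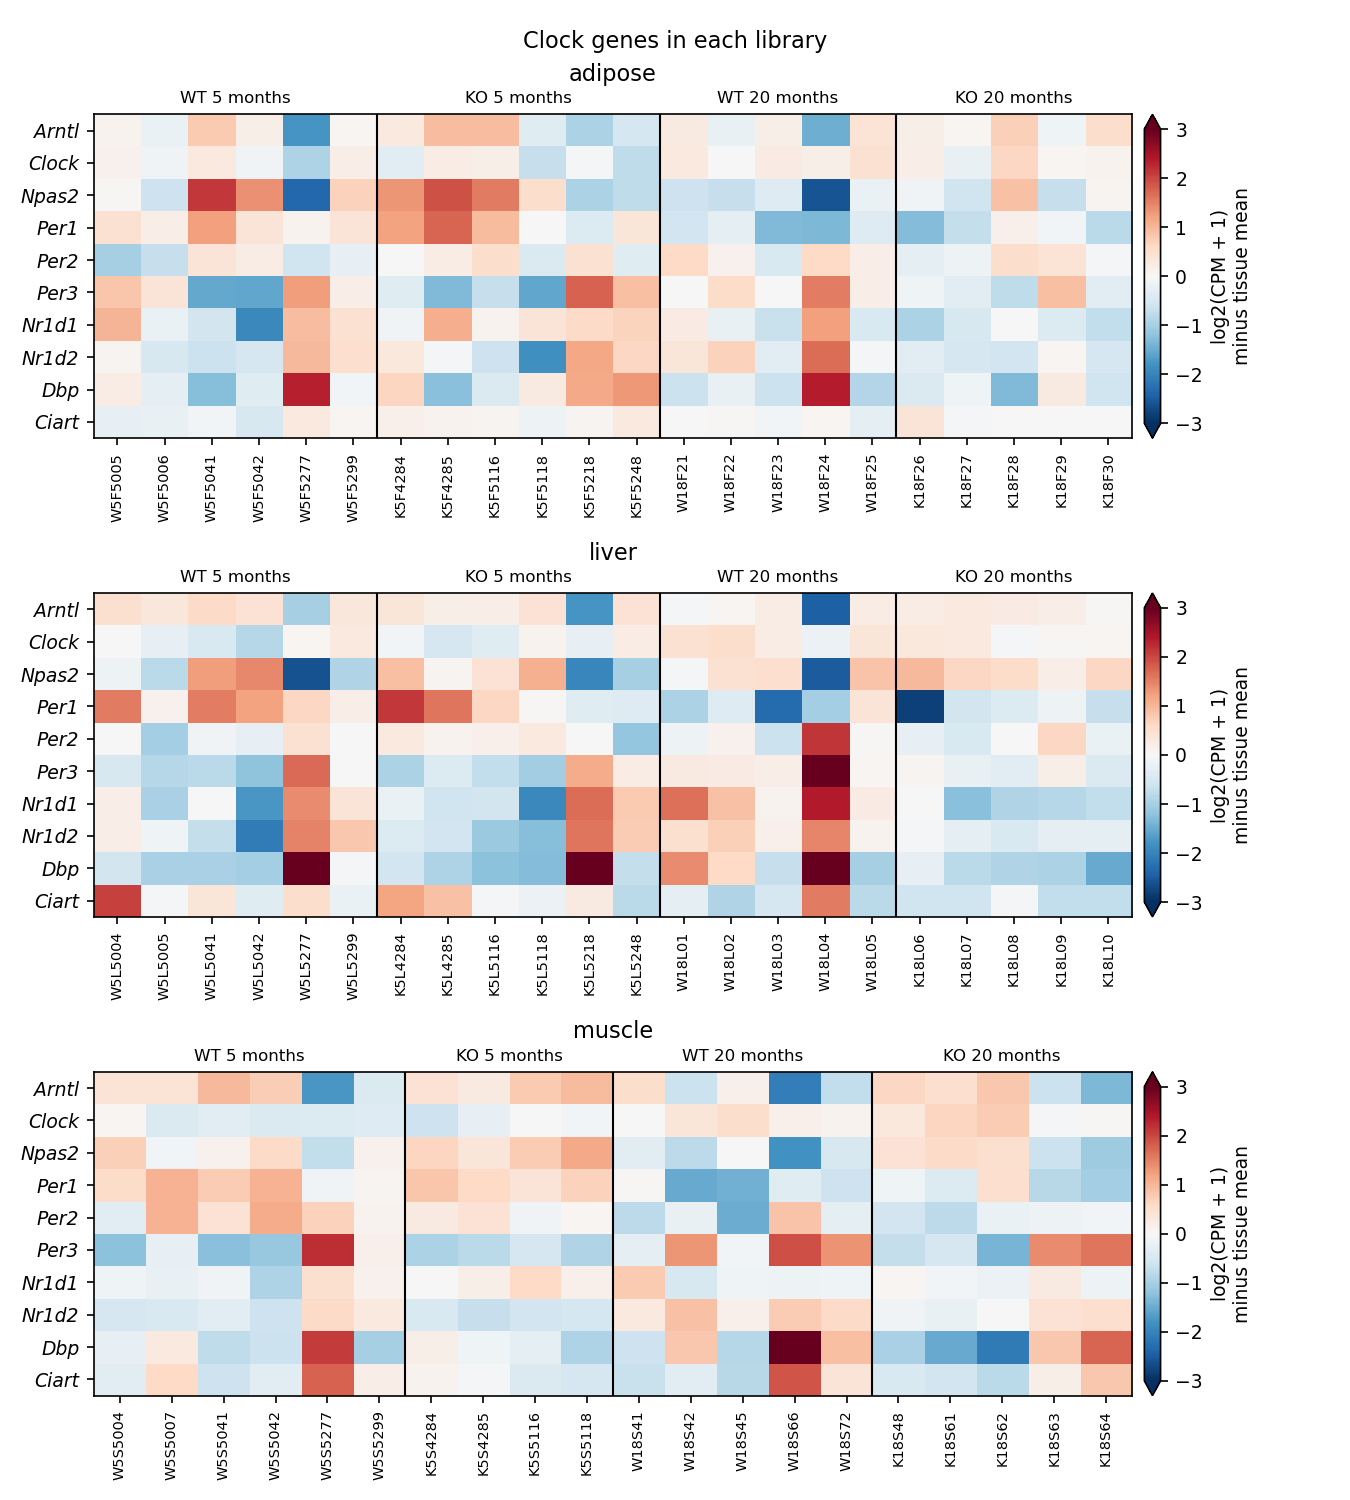
Each member (rows) in each library (columns, by code, in 4 groups per tissue), as log2(CPM + 1) minus the mean of that gene over the tissue, with colour limits at −3 and 3 and values beyond them in the end colours. Columns such as W5F5277, W5L5277, W5S5277, K5L5218, W18F24, W18L04 and W18S66 are blue for Arntl and Npas2 and red for Per3 and Dbp.

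Members moved together between libraries of 1 group. Correlations were taken on log2(CPM + 1) minus the group mean, for 45 pairs in each of 3 tissues, with permutation of libraries within groups (two-sided, 100000 resamples) and Benjamini-Hochberg adjustment over all of these pairs and tissues. The adjusted p was under 0.05 for 19, 16 and 21 pairs in adipose tissue, liver and muscle, and 10 pairs passed in all 3 tissues, each with 1 sign throughout. These were all 10 pairs among Arntl, Npas2, Per3, Nr1d2 and Dbp. Arntl and Npas2 went together, Per3, Nr1d2 and Dbp went together, and every pair between the 2 sets had a negative correlation.

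Arntl and Dbp had r = −0.94 in adipose tissue (rho −0.92, adjusted permutation p = 0.00015 for r and 0.00045 for rho), −0.95 in liver (rho −0.69, 0.00266 and 0.00798) and −0.90 in muscle (rho −0.81, 0.000787 and 0.00282). Without the 2 libraries farthest from the median of Arntl, r was −0.88, −0.88 and −0.82. In adipose tissue the permutation p for r, 1e-05, was the smallest that these resamples can give. Arntl and Npas2 had r = 0.94, 0.82 and 0.88 in adipose tissue, liver and muscle (rho 0.90, 0.68 and 0.76, adjusted permutation p = 0.00015, 0.00243 and 0.000787). Per3 and Dbp had r = 0.76, 0.91 and 0.87 (rho 0.80, 0.75 and 0.80, adjusted permutation p = 0.000397, 0.000208 and 0.000787). Over all libraries, Arntl and Npas2 were therefore high in the same ones and Dbp in others, with a limit for liver given next.

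The pairs were also taken without the libraries named below, a choice made after the data were seen. Without W5L5277, K5L5218 and W18L04, Arntl and Dbp had r = −0.34 over the other 19 liver libraries (rho −0.26, adjusted permutation p = 0.278 over 30 relations), so that the liver relation rested on those libraries. Npas2 and Nr1d2 still had r = −0.81 there (adjusted permutation p = 0.00694) and Per3 and Nr1d2 r = 0.82 (0.00384). Of the 10 pairs, 5 passed in liver in this set. Without W5F5277 and W18F24, Arntl and Dbp kept r = −0.87 in adipose tissue (adjusted permutation p = 0.00195, 7 of 10 pairs passed). Without W5S5277 and W18S66 they kept r = −0.81 in muscle (0.00705, 9 of 10 pairs). K5F5218 and K18S64 were kept in these sets, while K5L5218 was left out in liver. The counts of the tissues therefore rest on unlike removals. In the liver set, Arntl had r = −0.04 with Per3 (rho −0.01) and −0.08 with Nr1d2 (rho −0.16), values near 0. Arntl and Npas2 had r = 0.35 there (adjusted permutation p = 0.207) and Npas2 and Dbp −0.35 (0.0773), so neither passed. In adipose tissue the pairs that did not pass were Nr1d2 with Arntl (0.365), Npas2 (0.207) and Dbp (0.144). In muscle the pair that did not pass was Nr1d2 and Dbp (0.0773).

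**Figure D3:**
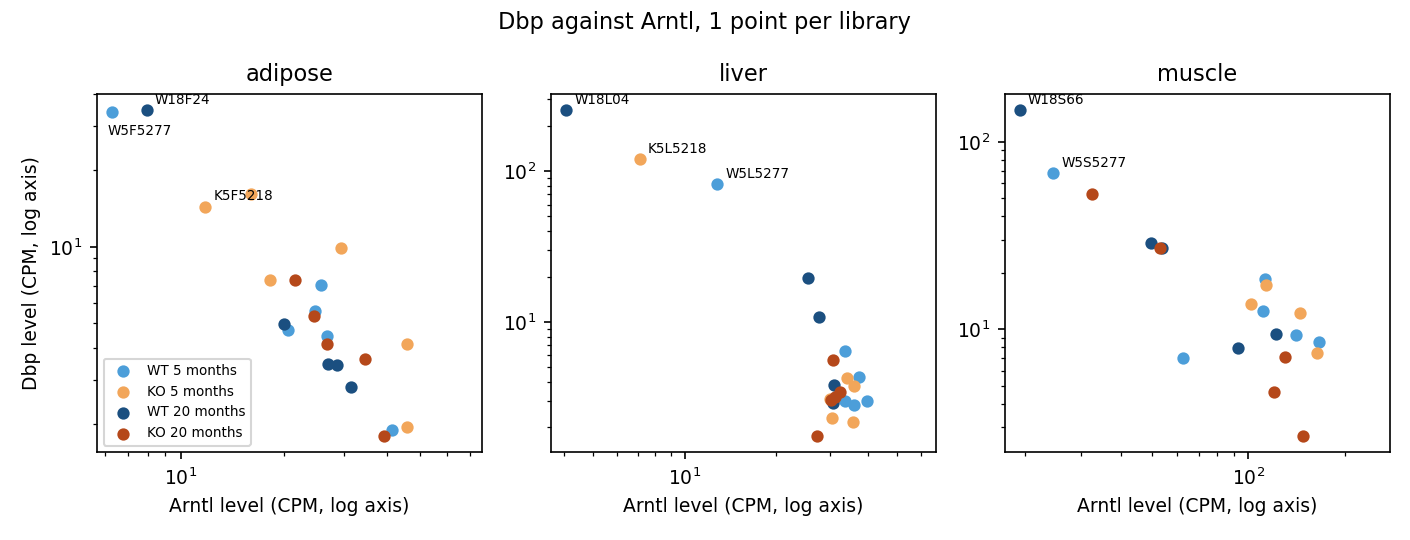
Dbp level (y axis, CPM, log scale) against Arntl level (x axis, CPM, log scale), 1 point per library, coloured by group, for adipose tissue, liver and muscle. Points fall from upper left to lower right in adipose tissue and muscle, and in liver 3 labelled libraries lie far from the other 19.

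Other members joined these sets in some tissues. In muscle Ciart went against Arntl (r = −0.93, rho −0.87, adjusted permutation p = 0.000289 and 0.000900) and Npas2 (r = −0.88) and with Dbp (r = 0.92, rho 0.88, adjusted permutation p = 0.000208 and 0.000450) and Per3 (r = 0.86). Without W5S5277 alone, with W18S66 kept, Ciart had r = −0.90 with Arntl and 0.90 with Dbp. In liver Nr1d1 went with Nr1d2 (r = 0.88, rho 0.79, adjusted permutation p = 0.000150 and 0.00212), Dbp (r = 0.80) and Per3 (r = 0.80), and against Npas2 (r = −0.78, rho −0.65, adjusted permutation p = 0.00196 and 0.0165) and Arntl (r = −0.68). Without W5L5277 alone, with K5L5218 and W18L04 kept, Nr1d1 had r = 0.86 with Nr1d2 and −0.73 with Npas2. The sets without all of these libraries were run only for the 10 pairs described before.

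In adipose tissue Per1, which is also a direct target of stress hormones, went with Arntl (r = 0.65, rho 0.68, adjusted permutation p = 0.00751 and 0.00794) and against Dbp (r = −0.56, rho −0.59, 0.0204 and 0.0256). In liver Per1 had r = 0.21 with Arntl (0.484) and in muscle 0.51 (0.122), which missed the threshold. Clock went with Arntl in adipose tissue (r = 0.72, rho 0.76, adjusted permutation p = 0.00649 and 0.00206), a call of r that was lost without W5F5277 (r = 0.58, rho 0.65, adjusted permutation p = 0.0602 and 0.0331). Clock and Arntl did not pass the threshold in liver (r = 0.25, adjusted permutation p = 0.402) or muscle (r = 0.43, 0.145). Whether these correlations differ between tissues was not tested.

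The genes outside the clock lists that were most like Arntl, by Pearson's r over the same library deviations, were Gab2 (0.90), Arid3a (0.89) and Tead1 (0.88) in adipose tissue (22 libraries, 10779 genes), Gm34490 (0.94), Lgalsl (0.92) and Clpx (0.92) in liver (22 libraries, 9862 genes) and Pim1 (0.93), Cebpd (0.93) and Tle4 (0.92) in muscle (20 libraries, 9758 genes). Those most like Dbp were Pick1 (0.83), Ngef (0.84) and Tmem233 (0.91) in adipose tissue, liver and muscle. Npas2 itself was the gene most like Arntl in adipose tissue. Tef, which encodes a relative of DBP that binds the same element, was most like Dbp in adipose tissue (0.89) and liver (0.86).

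Young libraries with the same number were compared between tissues, again as deviations from the group mean, with an exact permutation of numbers within genotype and adjustment over 30 relations. Between adipose tissue and liver (11 numbers), 9 of 10 members had a positive r and 3 passed: Npas2 (r = 0.87, rho 0.80, adjusted p of the exact permutation 0.0372 and 0.0846), Per3 (r = 0.78, rho 0.78, adjusted exact p = 0.0428 and 0.0846) and Nr1d2 (r = 0.85, rho 0.92, adjusted exact p = 0.0330 and 0.0156). Without the 2 farthest numbers r was 0.68, 0.60 and 0.88. For Arntl, with r = 0.70 (rho 0.31, adjusted exact p = 0.117 and 0.511), it was −0.50, so that its positive sign rested on W5F5277 and K5F5218 and their livers. Between liver and muscle (9 numbers) and between adipose tissue and muscle (8 numbers), 9 and 10 of 10 members had a positive r but none passed. Arntl reached r = 0.90 between liver and muscle (rho 0.80, adjusted exact p = 0.0547 and 0.0677) and Dbp 0.93 (rho 0.75, 0.126 and 0.195). Without the number of W5F5277, W5L5277 and W5S5277, no member passed in any pair of tissues. Nr1d2 then had r = 0.82 between adipose tissue and liver (adjusted exact p = 0.116), and Dbp 0.28 between liver and muscle (0.665).

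**Figure D4:**
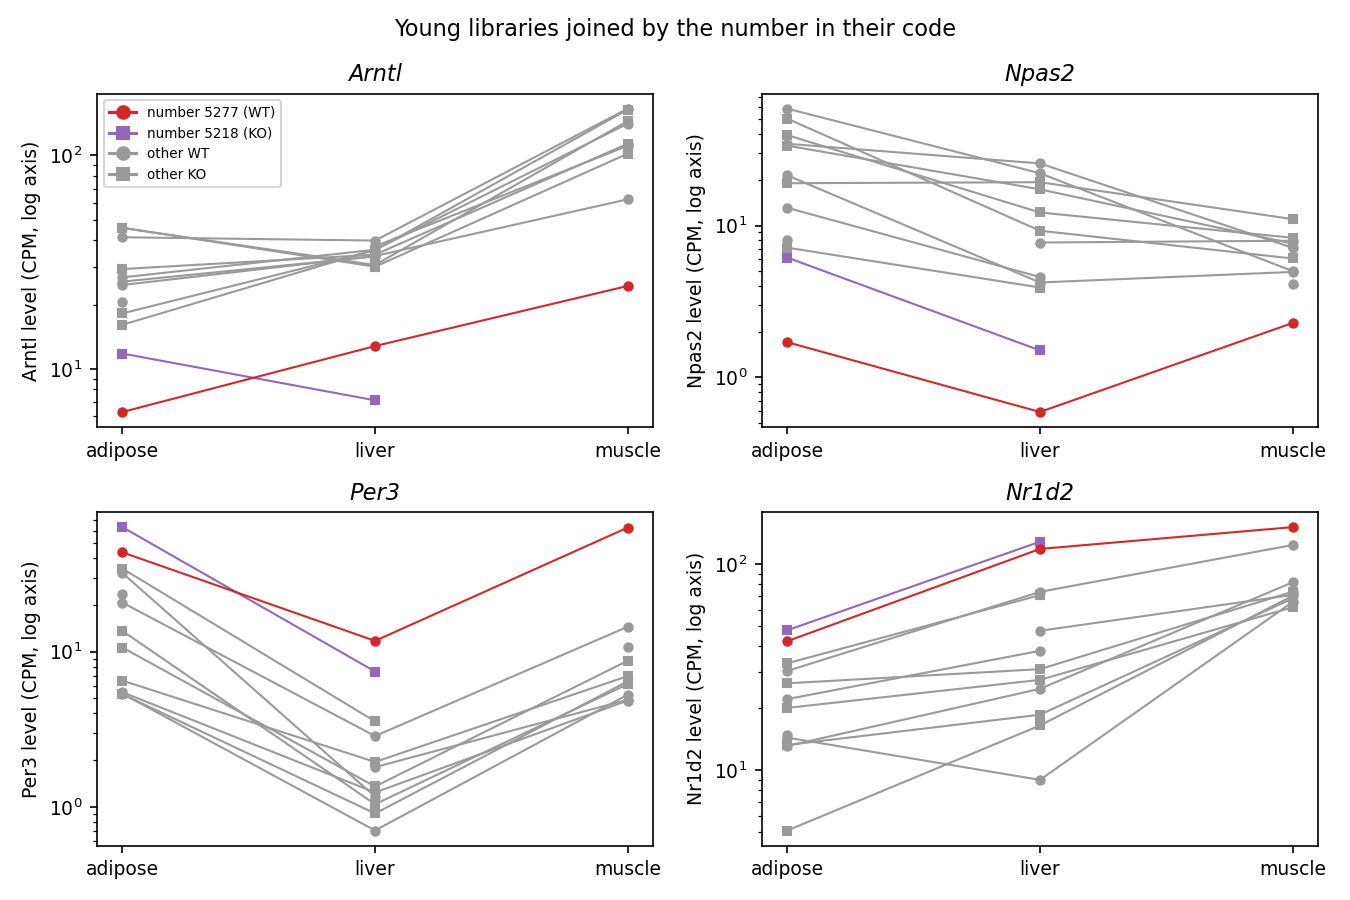
Levels of Arntl, Npas2, Per3 and Nr1d2 (y axes, CPM, log scale) in the young libraries of each tissue (x axis), with libraries of 1 number joined by a line, circles for WT and squares for KO. The number of W5L5277 (red) is lowest for Arntl in adipose tissue and muscle, lowest for Npas2 in each tissue and among the 2 highest numbers for Per3 and Nr1d2, and the number of K5L5218 (purple) lies on the same side of the others in adipose tissue and liver.

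The young libraries with Xist also sat together for some members. Per3 was at 5.32 to 10.6 CPM in the 4 adipose libraries with Xist and at 6.51 to 63.4 in the 8 without. In liver Nr1d2 was at 8.99 to 24.9 CPM with Xist and at 27.5 to 129 without, with no overlap, and Npas2 at 12.2 to 25.7 and 0.591 to 17.3. Nr1d2 did not overlap in adipose tissue either (5.11 to 14.4 and 14.8 to 47.9 CPM). Nor did Dbp in liver (2.16 to 2.991 and 2.998 to 121 CPM). In muscle Arntl (141 to 166 and 24.4 to 113 CPM) and Ciart (1.56 to 2.13 and 2.14 to 12.6 CPM) did not overlap. In every other case the ranges overlapped. The share of all genes separated in this way was not computed. The labels give no sex, and these values are a description.

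Levels differed between tissues in young WT mice, in a limma fit over all 64 libraries and 16240 genes. Muscle held more than liver of 6 members and less of 1, so 7 of 10 passed (72.3% of all genes did). Nr1d1 was 186 ± 56.0 CPM in muscle and 52.7 ± 38.8 in liver (SD, n = 6 each), a log2 difference of 2.07 (SE 0.43, limma adjusted p = 2.22e-05). Per1 was 184 ± 57.8 and 50.9 ± 22 CPM (1.89, SE 0.40, limma adjusted p = 3.62e-05). Arntl was 103 ± 51.7 and 32.3 ± 9.85 CPM (1.49, SE 0.45). Per2, Per3 and Nr1d2 were also higher in muscle than in liver (0.87, 1.85 and 1.17), while Clock was lower (−0.47; 42.6 ± 6.34 and 60.7 ± 16.4 CPM). Npas2, Dbp and Ciart did not pass, with differences of −0.42 ± 0.58, 1.03 ± 0.80 and 0.47 ± 0.37 (SE).

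Against muscle, adipose tissue held less Arntl (24.2 ± 11.3 CPM, log2 difference −1.99), Per1 (−1.15), Nr1d1 (−1.80), Nr1d2 (−2.06) and Ciart (−1.47), and more Npas2 (1.43; 22.95 ± 20.98 and 5.24 ± 2.05 CPM), so 6 of 10 passed (70.4% of all genes). Against liver, 4 of 10 passed in adipose tissue (71.7% of all genes): Per3 (21.8 ± 15.0 and 3.25 ± 4.22 CPM, log2 difference 2.47, SE 0.58, limma adjusted p = 0.000169) and Per2 (0.72) were higher, Nr1d2 (−0.89) and Ciart (−0.996) lower. The orders were therefore muscle, adipose tissue, liver for Per1 and Nr1d1, where adipose tissue and liver did not differ past the threshold, and muscle, liver, adipose tissue for Arntl and Nr1d2, where for Arntl the last 2 did not. These shares are no higher than the background. Scaling to each library's column sum in place of the deposited scale raised the median of all genes from 0.10 to 0.93 between adipose tissue and liver and turned the sign of Nr1d2 and of Clock there. It also lost the calls of Per1 between adipose tissue and muscle (limma adjusted p = 0.515), Clock between muscle and liver (0.362) and Ciart between adipose tissue and liver (0.300). Without the libraries with Xist, Per1 and Npas2 did not pass between adipose tissue and muscle. Nor did Nr1d2 between muscle and liver, or Per2 in either comparison with liver.

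No member differed between KO and WT past the threshold. In limma fits over the 4 groups of each tissue, 0 of 9 members passed in adipose tissue at 5 months (0.105% of all 14286 genes did) and at 20 months (0.0%), 0 of 10 in liver (0.0696% and 0.0232% of 12924 genes) and 0 of 10 in muscle (0.0% and 0.0302% of 13237 genes). Without adjustment, 1 of these 58 tests had p under 0.05, and edgeR's quasi-likelihood test and DESeq2 on the recovered reads called none either. The difference of the KO effects at 20 and 5 months passed for none of the 29 tests (0.0% of all genes in each tissue), with 1 at an unadjusted p under 0.05. The precision was low for the members that vary most: the 95% interval of the KO difference in liver at 20 months ran from −4.11 to 0.21 (log2) for Dbp, and that for Clock from −0.52 to 0.24. At 5 months the same interval in liver ran from −2.08 to 1.87 for Dbp.

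The 1 test with a low unadjusted p (limma, 0.00506) was Nr1d1 in liver at 20 months. Its levels were 18.5, 24.1, 24.7, 26.7 and 45.7 CPM in KO and 49.3, 54.3, 84.8, 146 and 241 in WT, with all 5 KO libraries below all 5 WT (log2 difference −1.80, SE 0.58, limma adjusted p = 0.737). Nr1d2 did not overlap either, at 29.9, 33.6, 33.8, 34.2 and 39.6 CPM in KO and 44.7, 46.3, 58.7, 68.6 and 116 in WT (−0.86, SE 0.53, limma adjusted p = 0.886). In this comparison 2 of 10 members were separated, and 2.46% of all tested genes were. In the other comparisons of KO with WT none was, in adipose tissue at 5 and 20 months (0.301% and 1.29% of all genes), in liver at 5 months (0.201%) or in muscle (0.718% and 3.0%). At 5 months the ranges of both genes overlapped in liver (Nr1d1 11.3 to 149 CPM in KO and 13.0 to 123 in WT).

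With age, Per1 was the only member that passed in more than 1 tissue. In WT adipose tissue its levels were 21.9, 22.01, 37.9, 43.5 and 46.1 CPM at 20 months, all below the 6 libraries at 5 months (lowest 61.8, median 75.0, highest 135.3). The log2 difference was −1.25 (SE 0.34, limma adjusted p = 0.0242), and 1 of 9 members passed, where 10.8% of all genes did. In WT liver the levels were 4.24, 11.9, 12.4, 18.8 and 33.4 CPM at 20 months and 27.4 to 75.8 at 5 months (median 49.2), so that 1 old library lay among the young (−1.73, SE 0.52, limma adjusted p = 0.0459; 1 of 10 members, 7.19% of all genes). In WT muscle they were 41.2, 43.2, 76.8, 92.0 and 122 CPM against 111 to 246 (median 188), with the 1 library W18S41 above the lowest young one (−1.34, SE 0.29, limma adjusted p = 0.00722). Per1 was thus called lower in the WT libraries at 20 months in each tissue, and these calls depended on the libraries with Xist (below). Groups were separated by age for 1 of 9 members in WT adipose tissue (11.7% of all genes) and 0 of 9 in KO (5.09%), for 0 of 10 in WT and KO liver (4.95% and 3.84%) and for 0 of 10 in WT muscle (5.27%).

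In KO mice Per1 was at 22.5, 32.3, 34.5, 53.8 and 63.8 CPM in adipose tissue at 20 months and at 42.6 to 194 at 5 months (median 92.5), a log2 difference of −1.20 (SE 0.34, limma adjusted p = 0.0259; 1 of 9 members, 14.2% of all genes). In KO liver it was at 2.77, 15.2, 17.0, 18.7 and 22.5 CPM against 19.0 to 112 (−1.52, limma adjusted p = 0.111; 0 of 10 members, 2.99% of all genes), and in KO muscle at 58.9, 66.5, 89.3, 109 and 169 CPM against 156 to 215 (−1.002, limma adjusted p = 0.0721; 0 of 10 members, 5.57% of all genes). The change with age in WT mice did not differ between tissues past the threshold for Per1 (limma adjusted p = 0.715, 0.809 and 0.944 for the 3 pairs of tissues), nor between genotypes (0.998, 0.998 and 0.999 in adipose tissue, liver and muscle).

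**Figure D5:**
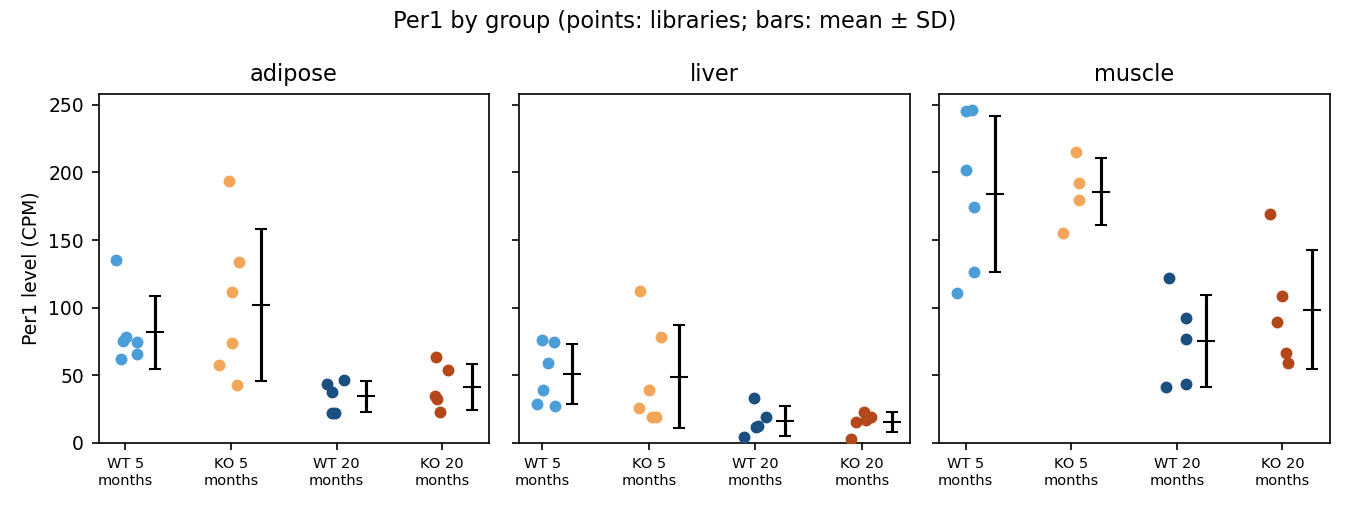
Per1 level (y axis, CPM) in each library by genotype and age (x axis) in adipose tissue, liver and muscle, with points for libraries and bars for the mean and SD of each group. The groups at 20 months lie below those at 5 months of the same genotype, without overlap for WT adipose tissue (21.9 to 46.1 against 61.8 to 135.3 CPM).

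The lower Per1 level at 20 months did not hold its call in every set of libraries. Without the 12 libraries with Xist, which are all young, the log2 difference in WT mice was −1.08, −1.48 and −1.17 in adipose tissue, liver and muscle, with limma adjusted p = 0.0962, 0.200 and 0.0514. With the presence of Xist as a covariate, muscle passed (0.0162), adipose tissue (0.0520) and liver (0.0736) did not. The liver call was also lost in 12 of 22 fits that each left out 1 library and with edgeR (0.0713), while the muscle call held in 20 of 20 such fits. In adipose tissue the WT call was lost without W18F23, W18F24 or W5F5041, and the KO call without K18F26, K18F30, K5F4284 or K5F4285.

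Genes that respond to glucocorticoids, as Per1 does, moved with age in some of the same fits. Of 11 such genes, 7 were lower at 20 months in WT muscle, where 7.68% of all genes were (Fkbp5, Tsc22d3, Zbtb16, Sgk1, Ddit4, Mt1 and Mt2; median log2 difference of the 11 −1.43, of all genes 0.03) and 4 in WT liver, where 4.36% of all genes were (Fkbp5, Ddit4, Mt1 and Mt2; −0.87 and −0.01). In adipose tissue none passed in WT (limma; 2 at an unadjusted p under 0.05; median −0.47 and 0.01) and 1, Ddit4, was lower in KO, where 3.75% of all genes were (−0.41 and 0.06). In KO liver and KO muscle none passed (limma; 3 and 4 at an unadjusted p under 0.05; medians −0.64 and −0.77, of all genes −0.02 in both). Summed over the 11 genes, the level in KO liver was 524 to 5110 CPM (median 2238) at 5 months and 794 to 1115 (median 882) at 20 months. In WT liver it was 724 to 4948 (median 2997) and 600.3 to 954 (median 632). The young WT livers lay at 724, 1078, 1194, 4800, 4938 and 4948 CPM, so none was near their median. Of the young livers with Xist, W5L5041 and W5L5042 were at 4800 and 4948, and K5L5116 and K5L5118 at 2598 and 1878. The calls of these genes without the libraries with Xist are not given here. Fkbp5, a co-chaperone of the glucocorticoid receptor, differed by −1.92 (SE 0.46) in WT liver and −1.47 (SE 0.50) in WT muscle. Of 9 immediate early genes, Egr2, Junb and Ier2 were lower in WT muscle (7.68% of all genes) and none passed in WT adipose tissue or liver (limma; 1 and 0 at an unadjusted p under 0.05). Their part in the Per1 result was not tested.

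In muscle 3 of 10 members passed with age in WT mice, where 18.6% of all genes did. Besides Per1 these were Clock and Nr1d2, both higher at 20 months. Clock was at 53.4, 57.0, 58.6, 68.1 and 77.2 CPM at 20 months and at 39.0 to 55.4 at 5 months (median 40.1), with 1 young library, W5S5004, above the lowest old one (0.55, SE 0.15, limma adjusted p = 0.0203). Nr1d2 was at 113, 124, 152, 172 and 186 CPM against 65.7 to 152 (median 77.7; 0.70, SE 0.20, limma adjusted p = 0.0221), where W5S5299 and W5S5277 reached into the old range. In KO muscle Nr1d2 was at 87.2, 94.1, 101, 138 and 144 CPM at 20 months, all above 61.9, 68.3, 70.3 and 73.6 at 5 months, and did not pass (0.68, SE 0.22, limma adjusted p = 0.0711; 1 of 10 members was separated, and 15.8% of all genes). KO Clock had a difference of 0.58 (SE 0.17, limma adjusted p = 0.0501).

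Neither WT muscle call held without the libraries with Xist (limma adjusted p = 0.0785 for Clock and 0.134 for Nr1d2). The Clock call was also lost without W18S42 or W18S45, and the Nr1d2 call with that covariate or without W18S42, W18S66, W5S5007 or W5S5042.

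Per2 was the 1 member whose change with age in WT mice differed between tissues (adipose tissue minus muscle 1.43, SE 0.47, limma adjusted p = 0.0315; 1 of 10 members, 14.7% of all genes). In adipose tissue Per2 was at 11.3, 17.4, 18.4, 24.4 and 24.7 CPM at 20 months and at 7.42 to 21.2 at 5 months (0.54, limma adjusted p = 0.162). In muscle it was at 2.73, 5.07, 7.71, 7.88 and 17.9996 CPM against 7.39 to 21.5 (−0.89, limma adjusted p = 0.0530). The ranges overlapped in both tissues, and the call was lost without the libraries with Xist, without W5F5277, W5L5277 and W5S5277, without a filter on low values, with edgeR and in 7 of 64 fits that each left out 1 library. For the other tissue pairs no member passed (6.15% of all genes for adipose tissue minus liver and 3.51% for muscle minus liver), and for the KO difference at 5 months none did in any pair (0.216%, 0.0% and 0.0%).

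The remaining members showed no call with age. In WT liver, Per3 was at 3.11, 3.46, 3.63, 3.71 and 40.4 CPM at 20 months and at 0.705 to 11.7 at 5 months (1.11, SE 0.54, limma adjusted p = 0.204), and Nr1d1 differed by 1.17 (SE 0.55, 0.187). Arntl differed by −0.03, −0.60 and −0.62 in WT adipose tissue, liver and muscle and Dbp by −0.10, 1.09 and 0.73, with intervals for Dbp as wide as −0.97 to 3.16 in liver. Npas2 differed by −1.10 in WT adipose tissue (SE 0.66, limma adjusted p = 0.264) and by −0.80 in WT muscle (SE 0.34, 0.0965).

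Other genes of the clock passed with age at shares not far from those of all genes. The count was 2 of 20 partners in adipose tissue of WT and of KO mice (10.8% and 14.2% of all genes), 2 of 19 in WT liver (7.19%), 0 of 19 in KO liver (2.99%), 3 of 19 in WT muscle (18.6%) and 1 of 19 in KO muscle (5.57%). Of 21 partner genes, 19 or 20 were tested per tissue and none differed between KO and WT past the threshold (limma; 0 to 3 per comparison at an unadjusted p under 0.05). With age, Usp2, a deubiquitinase with clock proteins among its substrates, was lower in adipose tissue of WT (−0.91, SE 0.27) and KO mice (−1.33, SE 0.27), Nampt, an NAD-producing enzyme under clock control, was lower in WT adipose tissue (−0.78, SE 0.23), and Hlf, a relative of Dbp, was lower in KO adipose tissue (−1.06, SE 0.32) and higher in WT liver (0.74, SE 0.15). Fbxl21, a ubiquitin ligase subunit for CRY proteins, was higher in WT liver (1.17, SE 0.20). In WT muscle the repressor genes Cry2 (−1.03, SE 0.30) and Bhlhe41 (1.26, SE 0.43) were lower and higher, the kinase gene Csnk1d was lower (−0.21, SE 0.07), and Csnk1e was lower in KO muscle (−0.71, SE 0.20). The partners' median difference with age in WT mice was −0.05, 0.01 and −0.19 in adipose tissue, liver and muscle, beside 0.01, −0.01 and 0.03 over all genes.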

How the data were processed

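RNA-seq libraries from 64 tissue samples were described by 1 table of 36333 gene rows, called CPM and made with CLC software per the file headers. The authors deposited values whose columns sum to 0.529 to 1.64 M, so they are a read signal scaled per library, not true CPM. Each value was a whole multiple of 1 read (100% within 0.05 of a read), which recovered 15.4 to 28.5 M reads per library, median 19.6 M. The submitters' processing notes name the builds GRCm38.p6 and mm10. Strand use in counting is not given in the sources used here. Each group's depth leaves little counting error for abundant members, and more for Ciart. No interval of a share was needed.

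Members and lists were chosen with earlier results of these data known. The text names all 10 members, list genes with adjusted p under 0.05, and the 3 genes most like Arntl (the first for Dbp). Symbols came from RefSeq for 35336 of 36332 IDs. The main test was limma 3.58.1 (R 4.3.3) with a trend on log2(CPM + 1), Benjamini-Hochberg over all genes above 1 CPM in no fewer libraries than the smallest group holds, per tissue for genotype and age and over 64 libraries for tissues. A fold on that scale understates changes of low genes. The design had assumed true CPM, and the same log-scale test was kept. Alternatives were a pseudocount of 0.1, no filter, edgeR 4.0.16 and DESeq2 1.42.0 on recovered reads, column-sum and TMM scaling, subsets of libraries and an Xist covariate. On simulated data for adipose tissue KO against WT at 5 months (14286 genes), limma called 92% of genes changed 2-fold and 100% of those changed 4-fold. It made 11 false calls there. The simulated counts had 1 dispersion for all genes. These shares therefore do not carry over to members that vary more, such as Dbp (SD 1.07 in adipose tissue, median of all genes 0.36). Correlations used scipy 1.17.1 and numpy 2.4.6. The labels do not say whether libraries of 1 group are separate animals, so p-values measure the spread between these libraries.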

Additional observations from a re-analysis of the deposited data

Results flagged for a closer look

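In groups of 4 to 6 libraries, a library was singled out when its gap to the next, over the range of log2(CPM + 1), passed Dixon's 95% critical value. By chance this happens in about 1 in 20 single combinations of gene and group. The combinations share libraries and the members were correlated, so they are not separate trials and their count is no test. A library was singled out in 20 of 120 of them. 5 of them were W18L04, the WT liver at 20 months with the lowest Arntl (4.06 CPM, others 25.4 to 30.9) and Npas2 (0.739 CPM) and the highest Per2 (39.0 CPM), Per3 (40.4 CPM, others 3.11 to 3.71) and Ciart (6.40 CPM). K5L5218 had the lowest Arntl (7.11 CPM) and highest Dbp (121 CPM) of its group, as W5L5277 did (12.8 and 81.8 CPM). In adipose tissue, W18F24 had the lowest Npas2 (1.30 CPM) and the highest Dbp (34.7 CPM).

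Single genes stood out in other libraries. Clock was lowest in W5F5277 (28.6 CPM) and highest in W5S5004 (55.4 CPM). Per1 was highest in W5F5041 (135.3 CPM) and lowest in K18L06 (2.77 CPM), and Per2 was lowest in K5L5248 (3.04 CPM). Nr1d1 was highest in W18S41 (338 CPM). Ciart was highest in K18F26 (1.32 CPM), K18L08 (1.43 CPM) and W5L5004 (9.46 CPM). The change of Per2 with age in WT mice differed between adipose tissue and muscle by 1.43 on the log2 scale in the test of the difference itself.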

How the results depend on the processing

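No member was called between KO and WT in any alternative or in any fit that left out 1 library. Counts of members called with age moved as follows. Adipose tissue in WT (1 called) had 0 with an Xist covariate and 0 to 1 in fits without 1 library. Without the libraries with Xist, Per1 there was not called, and the count stayed at 1 with Per2 as its member. Adipose tissue in KO (1) had 0 with no filter, 2 with DESeq2, without Xist libraries or with an Xist covariate, and 0 to 2 without 1 library. Liver in WT (1) had 0 with no filter, edgeR, without Xist libraries or with an Xist covariate, and 0 to 2 without 1 library. Muscle in WT (3) had 0 without Xist libraries and 1 to 5 without 1 library. Muscle in KO (0) had 1 with edgeR, 2 with DESeq2 or column-sum scaling, and 0 to 3 without 1 library. Liver in KO stayed at 0 without 1 library.

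For levels, adipose tissue minus liver (4) had 2 with no filter and 2 to 5 without 1 library, muscle minus liver (7) 6 to 8 and adipose tissue minus muscle (6) 5 to 7. Scaled to the column sum, adipose tissue minus liver reversed to 0.956 for Clock (from −0.17) and 0.205 for Nr1d2 (from −0.89), by a scale that raised the median of all genes. The tissue difference of the change with age was 1 with DESeq2 for muscle minus liver (0; 0 to 1 without 1 library), and for adipose tissue minus muscle (1) 0 with no filter, edgeR, without Xist libraries or without W5F5277, W5L5277 and W5S5277, and 0 to 1 without 1 library. Other tissue differences stayed at 0. Same-number correlations of adipose tissue and liver (3) were 1 with column-sum scaling and 0 without Xist libraries or without those 3 libraries, the last added after the data were seen. Of the gene pairs called in the main set, 13, 16 and 16 were also called without those 3 libraries in adipose tissue, liver and muscle. The cause of these moves was not tested.

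Same-number libraries correlated over all genes with a median r of 0.13, 0.16 and 0.21, above 0.1 in 7 of 11, 6 of 8 and 9 of 9 numbers, and best with their own number in 4, 6 and 8. With the number as a replicate block (consensus correlation 0.0460), the counts stayed at 4, 7 and 6, with Per3 at 2.45 for adipose tissue minus liver. Same-number correlations with muscle without Xist libraries were not run, with under 6 numbers left. Depth limits Ciart, with 5 to 273 reads, and Npas2 and Per3 in liver, with 8 reads at the least.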
